A study of Mus musculus with 20 samples.

Results

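Freshly isolated portal mesenchymal stem cells (PMSC) were compared with freshly isolated hepatic stellate cells (HSC) of the mouse liver over all genes. The 4 PMSC and 4 HSC libraries whose titles name the uncultured cells were used, 8 of the 20 libraries of the series. The remaining 12 hold cultured myofibroblasts and enter 1 alternative fit only. Both groups came from liver of C57BL/6 mice, with no genotype, treatment, age or time given beyond the cell type. The series asks whether fibroblasts of the portal tract with stem cell features supply myofibroblasts in liver fibrosis. Here the 2 starting populations were described by their transcription factors, receptors, secreted factors, transporters and channels. The isolation and any sorting gate are not stated in the labels. The labels also do not tie the 4 libraries of either group to different mice. The p-values therefore measure the spread between these libraries, which may be technical.

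Stellate cells lie along the liver sinusoids between hepatocytes and the fenestrated endothelium, store vitamin A as retinyl esters and contract around the sinusoid like pericytes. Portal fibroblasts lie around the bile ducts and vessels of the portal tract and make elastin-rich connective tissue. Both can turn into scar-forming myofibroblasts, and a stellate preparation is taken from a sinusoid that it shares with endothelial cells, Kupffer cells (the resident liver macrophages) and hepatocytes.

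The marker genes followed the labels in every library. Cd34, a surface sialomucin of fibroblast progenitors, stood at 1054, 1188, 1422 and 947 CPM in PMSC and 6.61, 7.79, 7.35 and 6.73 CPM in HSC (log2 fold change 7.34 ± 0.19, edgeR adjusted p = 4.11e-09). Gli1, the transcriptional output of hedgehog signalling, stood at 114, 105, 81.7 and 65.9 CPM in PMSC and 0, 0.354, 1.03 and 0 CPM in HSC (log2 fold change 7.95 ± 0.70, edgeR adjusted p = 2.47e-05, 9.46 without HSC replicate 3). Slit2, a secreted guidance protein, lay at 115, 109, 161 and 53 CPM in PMSC and 0, 0, 0.0468 and 0 CPM in HSC, where the HSC value is 1 count in 1 library and the ratio of the groups was 8002 (95% counting interval 1436 to 316128). All 4 PMSC libraries lay above all 4 HSC libraries for these 3 genes. Reln, which encodes the extracellular glycoprotein reelin, ran the other way, with 4043, 6129.7, 6766 and 5406 CPM in HSC and 66.3, 32.1, 23.8 and 49.2 CPM in PMSC (log2 fold change -7.02 ± 0.39, edgeR adjusted p = 3.15e-07). Lrat, the enzyme that esterifies retinol for storage, stood at 1279, 1334, 1419 and 1321 CPM in HSC and 213, 80.7, 83.3 and 207 CPM in PMSC (log2 fold change -3.20 ± 0.36, edgeR adjusted p = 4.63e-05). PMSC libraries thus also held Lrat, with replicates 1 and 4 above 2 and 3. Levels are given as CPM, the deposited expected counts of a library divided by its scaled size, for replicates 1 to 4 in that order. Fold changes are log2 values of PMSC minus HSC with their SE from edgeR's quasi-likelihood test. A gene was called at a p under 0.05 after Benjamini-Hochberg adjustment over all tested genes. A pair of values written with "against" gives the mean CPM of the 4 PMSC libraries and then of the 4 HSC libraries, and a number with its SE beside such a pair is the log2 fold change of a gene that was called. Where leaving out 1 library moved a log2 fold change by more than 1.5-fold, the value without it follows. If that library held every count of the lower group, the value was fitted against an empty group and its size is not an estimate. This applies at least to Osr2, Rspo1, Slc6a7, Nr5a2, Adgre4, Apcs, Abcb11 and Folr2.

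Library totals ran from 11810532 to 21438753 expected counts in PMSC and from 14806349 to 18650355 in HSC. Of 24848 genes, 13725 passed the filter on low counts. The biological coefficient of variation was 27% among PMSC and 26.9% among HSC libraries, and the first principal component of the 8 libraries held 87.9% of the variance. Of the tested genes 4486 (32.7%) were called higher and 4673 (34%) lower in PMSC, so a call alone says little about a gene. These shares are the background for every count of family members called higher or lower below. A second rule that also asked for a change of at least 4-fold was met by 1702 genes (12.4%) higher and 1554 genes (11.3%) lower in PMSC. The 4 libraries of one group lay wholly above the 4 of the other for 4271 genes (31.1%) higher and 4443 genes (32.4%) lower in PMSC. The median log2 fold change of all tested genes was -0.04. Scaling decides part of this balance: of the calls 49% were higher in PMSC, and with library totals alone the share was 31.6% and every log2 fold change moved by about -0.43.

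Secreted factors and channels leaned to PMSC, and receptors split evenly. All tested genes gave 12.4% higher and 11.3% lower by the 4-fold rule. Of 402 tested secreted factors 159 (39.6%) were at least 4-fold higher and 101 (25.1%) at least 4-fold lower in PMSC (median log2 fold change 0.91). Of 156 tested channels 52 (33.3%) were at least 4-fold higher and 27 (17.3%) at least 4-fold lower (median 0.64). Transcription factors numbered 360, of which 70 (19.4%) were at least 4-fold higher and 39 (10.8%) lower (median 0.48). Receptors numbered 400, with 109 (27.2%) at least 4-fold higher and 112 (28%) lower (median 0.11). Transporters numbered 339, with 59 (17.4%) higher and 64 (18.9%) lower by this rule (median 0.10). The lower share was thus also above that of all genes in each class but transcription factors. With library totals alone the medians were 0.48 for secreted factors, 0.21 for channels and 0.04 for transcription factors, and those of receptors and transporters turned to -0.32 and -0.33. Classes were gathered by gene symbol, and a gene could sit in more than 1 of them.

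**Figure D1:**
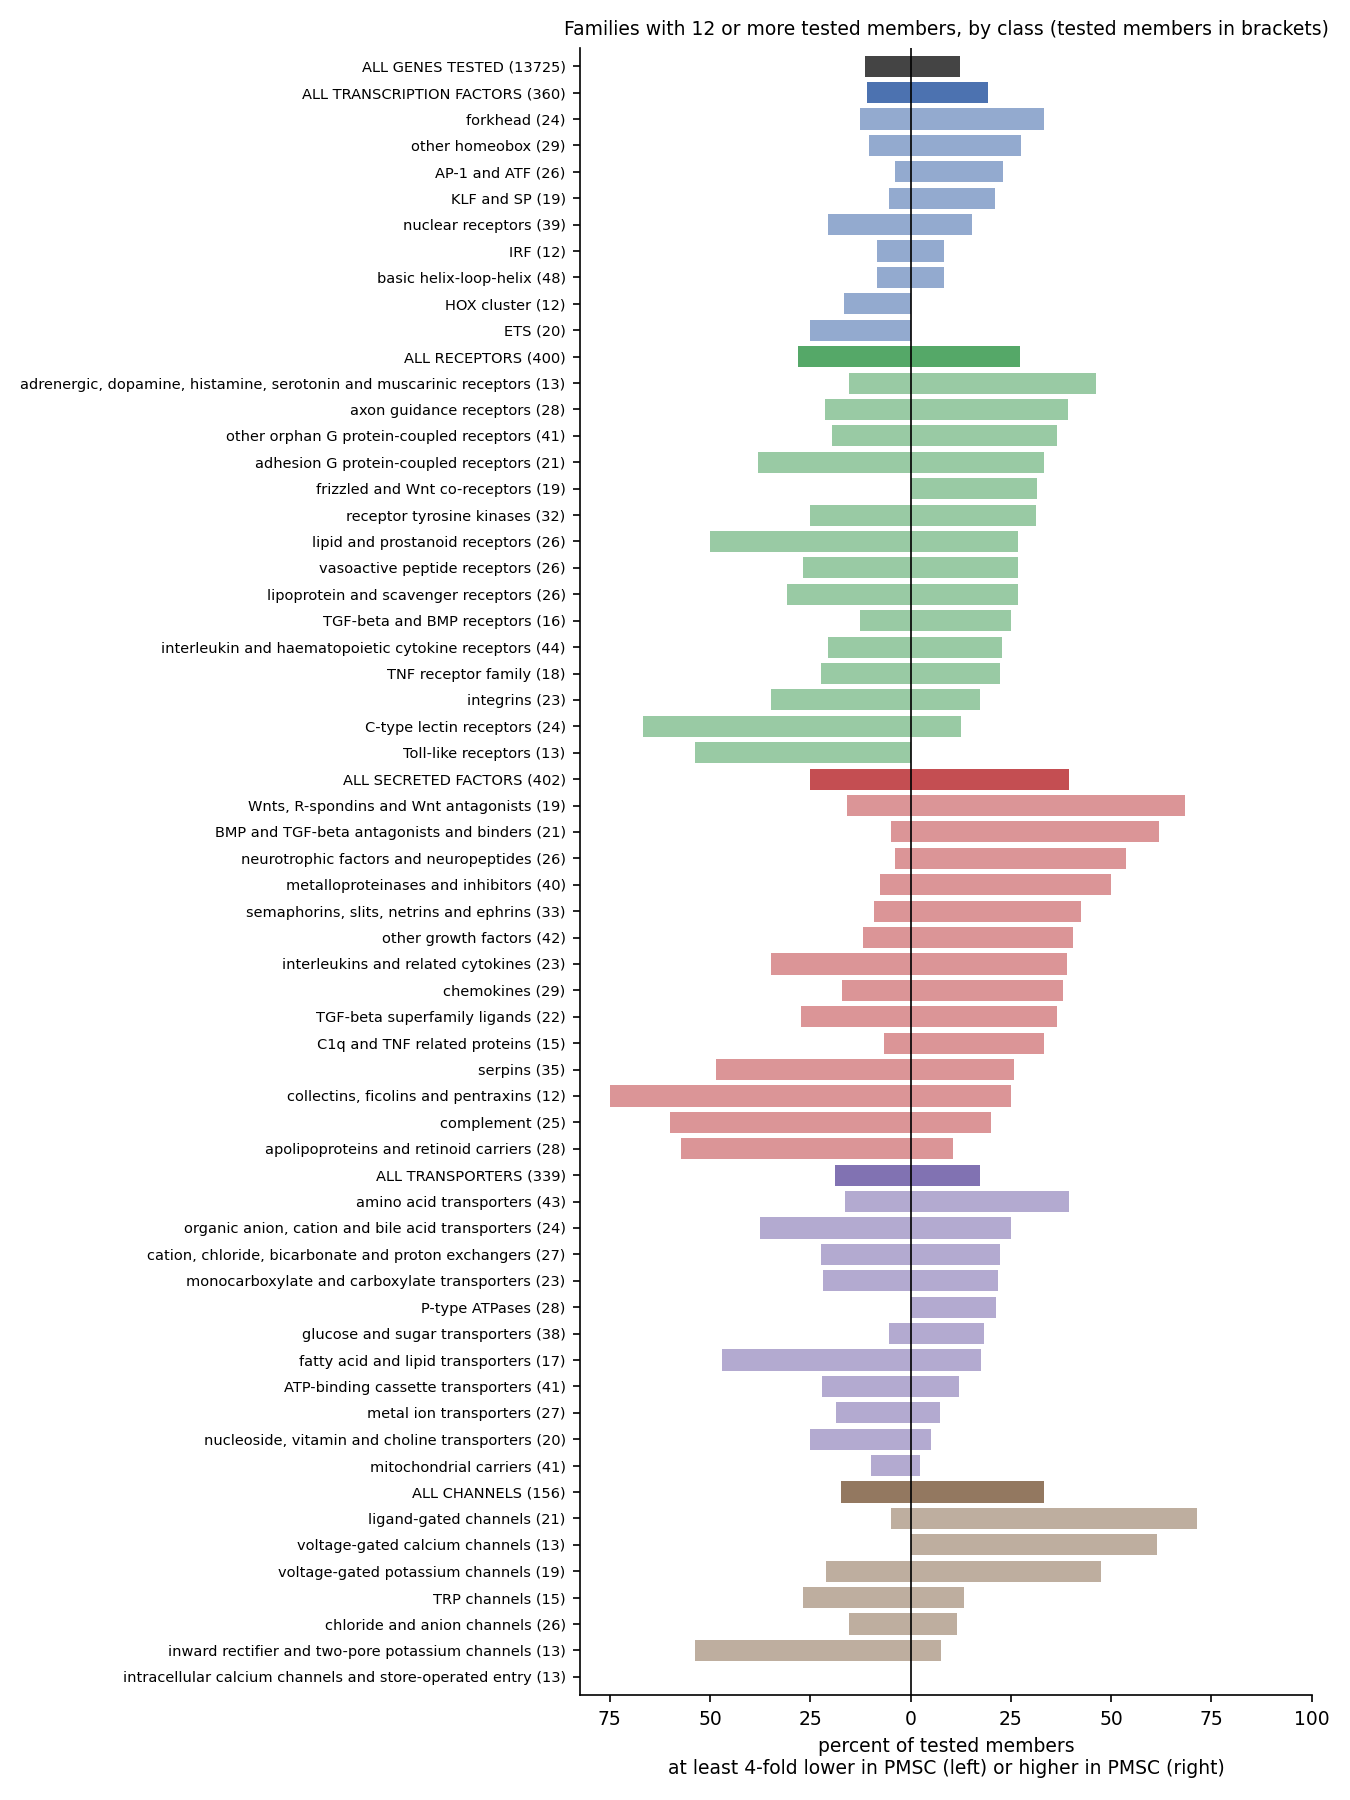
Share of tested members at least 4-fold higher (right) or lower (left) in PMSC, in percent, for families with 12 or more tested members, with each class and all 13725 genes as darker bars. All genes stand at 12.4% and 11.3%. Ligand-gated and voltage-gated calcium channels and Wnt and BMP modulators reach furthest right, and C-type lectin receptors, collectins and complement furthest left.

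Markers of other liver cells were more abundant in the HSC libraries, and this touches many genes called lower in PMSC. Lists for 11 other cell types took 9.16%, 8.62%, 5.47% and 5.69% of the counts in HSC replicates 1 to 4 and between 0.557% and 0.775% in PMSC. The hepatocyte list (119 genes) summed to 28550, 38940, 7066 and 10370 CPM in the HSC libraries and to between 1925 and 3086 CPM in PMSC, and 109 of its 115 tested members were lower in PMSC. The endothelial list (64 genes) summed to between 22120 and 26100 CPM in HSC and between 1398 and 2217 CPM in PMSC, with 58 of 60 tested members lower. The macrophage list (103 genes) summed to 23180, 12660, 12030 and 8481 CPM in the HSC libraries and to between 1252 and 1959 CPM in PMSC, with 93 of 99 tested members lower and 19 members at 0 in all 4 PMSC libraries. The antigen-presenting cell list (16 genes) summed to between 648.1 and 1747 CPM in HSC and between 49.68 and 105.3 CPM in PMSC, with 11 of 12 tested members lower. The hepatocyte list was thus highest in HSC replicates 1 and 2, the macrophage list in replicate 1, and the endothelial list was even over the 4. The part of these cells in the values that follow was not tested.

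Defining genes of these cells were present in the HSC libraries at high levels. Albumin (Alb), the main hepatocyte plasma protein, stood at 8997, 8016, 2157 and 2885 CPM in HSC and 54.4, 117, 29.8 and 34.2 CPM in PMSC (log2 fold change -6.55 ± 0.76, edgeR adjusted p = 0.00011). Clec4f, a Kupffer cell lectin, lay at 2068, 952, 919 and 567 CPM in HSC and 0.0603, 0, 0 and 0.42 CPM in PMSC (log2 fold change -12.91 ± 0.83, edgeR adjusted p = 3.44e-06, -15.20 without PMSC replicate 4). Stab2, the hyaluronan scavenger receptor of sinusoidal endothelium, stood at 1226, 1058, 1308 and 1272 CPM in HSC and 13.7, 12.4, 11.3 and 9.76 CPM in PMSC (log2 fold change -6.69 ± 0.18, edgeR adjusted p = 4.11e-09). The stellate list itself (30 genes) summed to between 33010 and 48600 CPM in HSC and between 7594 and 11090 CPM in PMSC, and the portal fibroblast list (26 genes) to between 68520 and 76970 CPM in PMSC and between 11880 and 15610 CPM in HSC. In these bulk libraries fewer cells of a type and less RNA per cell cannot be told apart. A list of 35 genes induced by tissue dissociation summed to between 39120 and 54260 CPM in PMSC and between 17630 and 28700 CPM in HSC. Of these genes 25 were higher and 4 lower in PMSC, with Fos and Jun among the 4 lower.

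**Figure D2:**
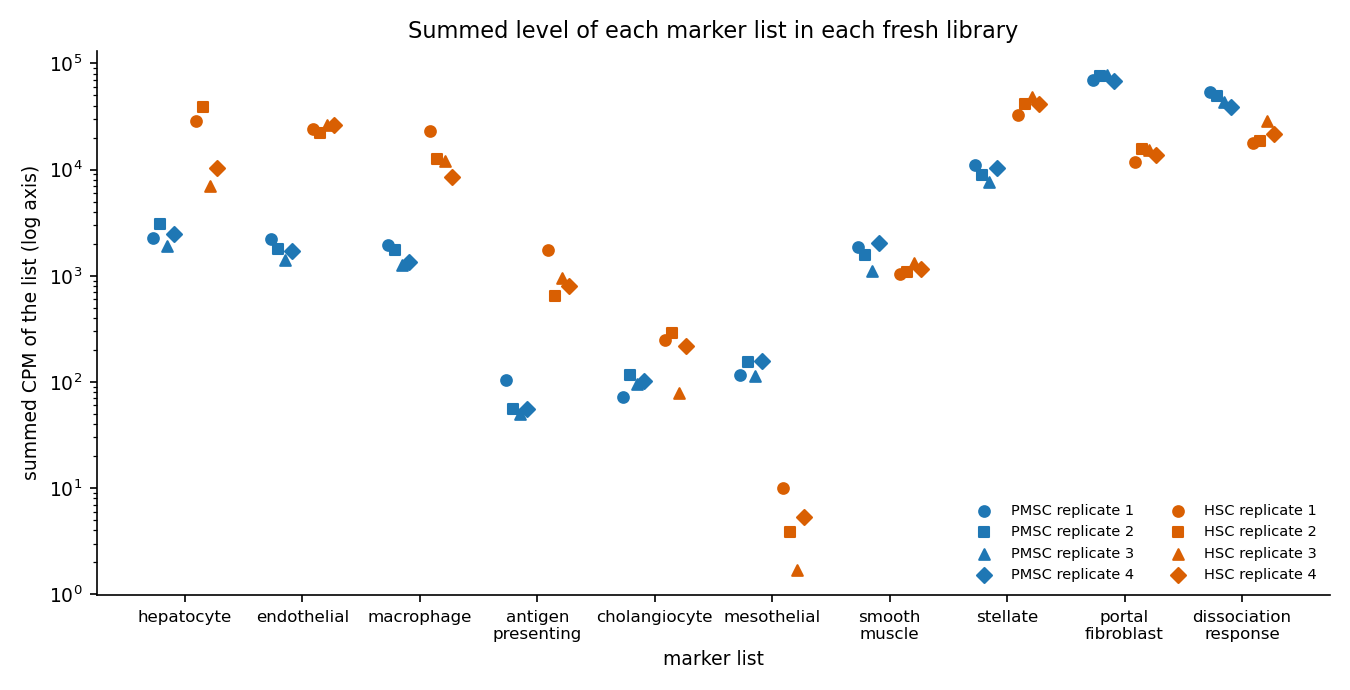
Summed CPM (log axis) of 10 marker lists in each of the 4 PMSC (blue) and 4 HSC (orange) libraries, with 1 point per library and the marker shape giving the replicate. The hepatocyte and macrophage lists spread widely over the HSC libraries (7066 to 38940 and 8481 to 23180 CPM), and the endothelial list does not (22120 to 26100 CPM).

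Among transcription factors, PMSC held developmental regulators that were rare in HSC. All 4 early B-cell factors (EBF), zinc-coordinating factors of mesenchymal and fat precursor cells, were higher in PMSC. Ebf1 stood at 52.6, 92.5, 130.2 and 68 CPM in PMSC and 0.413, 0.0506, 0.187 and 0.28 CPM in HSC (log2 fold change 8.50 ± 0.47, edgeR adjusted p = 7.44e-07). Ebf2 reached 17.2 against 0.014 CPM, with 1 count in the HSC libraries together, a ratio of 1241 (95% counting interval 222 to 49079). Ebf3 lay at 2.42 against 0.0468 CPM (5.39 ± 0.97, or 8.37 without HSC replicate 3) and Ebf4 at 16.7 against 3.39 CPM (2.30 ± 0.29). PMSC libraries lay above HSC libraries for all 4 genes.

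Osr1 and Osr2, odd-skipped zinc fingers of embryonic connective tissue, gave the same picture. Osr1 lay at 10.9, 19, 32.7 and 19.7 CPM in PMSC and 0, 0, 0.0468 and 0 CPM in HSC, where the single HSC count gives a ratio of 1510.5 (95% counting interval 271 to 59710.5). Osr2 stood at 44.6, 26.3, 36.6 and 16.9 CPM in PMSC and 0, 0.202, 0 and 0 CPM in HSC (log2 fold change 9.06 ± 0.69, edgeR adjusted p = 4.15e-06, 12.08 without HSC replicate 2). Bnc2, a zinc finger of fibroblasts, stood at 30.1, 26.7, 23.2 and 22.3 CPM in PMSC and 0.155, 0, 0 and 0 CPM in HSC, with 3 HSC counts and a ratio of 670.3 (95% counting interval 229 to 3254). Among mesenchymal homeobox factors Prrx1 lay at 89.4 against 1.13 CPM (6.29 ± 0.18). Meox2 had no count in HSC and lay at 13 against 0 CPM, at least 339-fold higher in PMSC, where such a bound is set against a floor of 3 counts over the 4 empty libraries. Of the 6 GLI and GLIS factors tested, 5 were higher and 0 lower in PMSC, including Gli2 at 49 against 0.201 CPM (log2 fold change 7.94 ± 0.61, or 8.59 without HSC replicate 1) and Gli3 at 67.1 against 21 CPM (1.67 ± 0.25).

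The 3 orphan nuclear receptors of the NR4A group were higher in PMSC, with Nr4a1 at 1854 against 457 CPM (log2 fold change 2.02 ± 0.21), and Nr4a2 and Nr4a3 had log2 fold changes of 5.40 ± 0.25 and 5.26 ± 0.38. These 3 genes, like Klf4 (2464, 2035, 1719 and 1519 CPM in PMSC and 349, 375, 573 and 398 CPM in HSC), are on the dissociation list given above, and the part of dissociation in them was not tested.

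All 5 NF-kappaB subunits were higher in PMSC. Nfkb1 stood at 797, 1222, 1168 and 717 CPM in PMSC and 119, 126, 127 and 120.0 CPM in HSC (log2 fold change 2.99 ± 0.19, edgeR adjusted p = 5.65e-07). Nfkb2 lay at 337, 447, 372 and 384 CPM in PMSC and 50.3, 56.2, 37.7 and 30.5 CPM in HSC (log2 fold change 3.14 ± 0.20, edgeR adjusted p = 5.69e-07). Rela, Relb and Rel had log2 fold changes of 1.76 ± 0.11, 1.87 ± 0.21 and 1.78 ± 0.21, so that the subunits moved in 1 direction. Of 26 AP-1 and ATF factors 18 (69.2%) were higher and 3 (11.5%) lower, where all tested genes gave 32.7% and 34%, and the family was not uniform. Fosl1, a late-response Fos relative, stood at 163, 151, 259 and 142 CPM in PMSC and 0.103, 1.37, 0.937 and 0.617 CPM in HSC (log2 fold change 7.86 ± 0.51, edgeR adjusted p = 3.3e-06). Fos itself was lower in PMSC at 1340.3 against 2927 CPM (-1.13 ± 0.29), as was Jun at 1391 against 2771 CPM (-0.99 ± 0.26). All 3 are on the dissociation list. The calcium-responsive factor Nfatc2 was higher at 72.7 against 0.608 CPM (6.88 ± 0.24), as was Stat3, which carries interleukin-6 family signals, at 818 against 165 CPM (2.31 ± 0.16).

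Wt1 and Sox9 are factors that PMSC shared with lists of other cells. Wt1, also a mesothelial factor, lay at 59.7, 95.9, 55.8 and 98 CPM in PMSC and 0.516, 0.455, 0 and 1.18 CPM in HSC (log2 fold change 7.20 ± 0.61, edgeR adjusted p = 1.69e-05, 7.90 without HSC replicate 4). The defining mesothelial genes Msln and Upk3b held 4 and 3 counts in the 4 PMSC libraries together, while Rspo1 of the same list held 1792. Of the 5 tested members of the mesothelial list 3, Wt1 among them, were higher and 0 lower in PMSC. The part of mesothelial cells in these values was not tested. Sox9, also a bile duct factor, stood at 58.2, 72.4, 70.1 and 72 CPM in PMSC and 2.84, 5.41, 0.656 and 6.11 CPM in HSC (log2 fold change 4.19 ± 0.54, edgeR adjusted p = 0.000216). Bile duct keratin Krt19 and the adhesion molecule Epcam were below 2 CPM in both groups, at 0.86 against 1.25 CPM and 0.805 against 1.71 CPM, and neither was called.

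Transcription factors known from stellate cells were not all lower in PMSC. Lhx2, a LIM homeobox factor of stellate cells, stood at 102, 142, 182 and 158 CPM in HSC and 15.8, 9.18, 8.51 and 29.3 CPM in PMSC (log2 fold change -3.21 ± 0.42, edgeR adjusted p = 0.000231). Hand2, a basic helix-loop-helix factor, lay at 186, 197, 279.7 and 199.6 CPM in HSC and 58.4, 55, 51.3 and 55.3 CPM in PMSC (log2 fold change -1.97 ± 0.14, edgeR adjusted p = 1.33e-06). Tcf21, a related mesodermal factor often used as a stellate marker, was present in both and higher in PMSC, at 336, 325, 305 and 303 CPM in PMSC and 108, 132, 151 and 153 CPM in HSC (log2 fold change 1.22 ± 0.13, edgeR adjusted p = 1.77e-05). The GATA factors split. Gata4 was lower in PMSC at 83.7 against 185 CPM (log2 fold change -1.14 ± 0.17, edgeR adjusted p = 0.000201). Gata6 was higher at 119 against 39.3 CPM (log2 fold change 1.60 ± 0.22, edgeR adjusted p = 0.00011).

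Nuclear receptors leaned to HSC, with 11 of 39 tested (28.2%) higher and 20 (51.3%) lower in PMSC, where all tested genes gave 32.7% and 34%. Nr5a2, an orphan receptor of bile acid synthesis, stood at 31.7, 28.1, 19.8 and 28.7 CPM in HSC and 0.543, 0, 0 and 0 CPM in PMSC (log2 fold change -7.51 ± 0.73, edgeR adjusted p = 2.64e-05, -11.92 without PMSC replicate 1). Nr1h5, a farnesoid X receptor relative, stood at 99.4, 102, 169 and 148 CPM in HSC and 9.65, 2.52, 10.5 and 9.08 CPM in PMSC (log2 fold change -4.05 ± 0.43, edgeR adjusted p = 6.32e-05). The classical bile acid receptor Nr1h4 (45.3 against 168 CPM, log2 fold change -1.89 ± 0.23), the retinoid partners Rxra (105 against 441 CPM, -2.07 ± 0.15) and Rarb (14.5 against 53.4 CPM, -1.88 ± 0.17) were lower as well. Hepatocytes also express Nr5a2, Nr1h4 and Rxra. Their highest HSC library was 1.6, 1.68 and 1.21 times the lowest, and the part of hepatocytes in them was not tested. Tfec, a relative of the microphthalmia factor, lay at 33.6, 25.2, 20.7 and 24.8 CPM in HSC and 0.301, 0.112, 0 and 0.472 CPM in PMSC (log2 fold change -6.69 ± 0.45, edgeR adjusted p = 8.23e-07, -7.31 without PMSC replicate 4). Tfec was highest in HSC replicate 1, as was the macrophage list, and the part of macrophages in it was not tested.

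Other lower factors belong to blood and vessel lineages. Spi1 (PU.1), the myeloid master factor, stood at 51.9, 32.6, 31.8 and 17.6 CPM in HSC and 0.241, 0.112, 0 and 0 CPM in PMSC (log2 fold change -8.37 ± 0.62, edgeR adjusted p = 3.12e-06, -9.40 without PMSC replicate 1). Its relative Spic, of iron-handling macrophages, was at 0 in all 4 PMSC libraries and at least 485-fold lower than in HSC, at 0 against 22.8 CPM. Erg, an endothelial ETS factor, stood at 121, 89.7, 116 and 145 CPM in HSC and 5.31, 2.18, 1.76 and 1.47 CPM in PMSC (log2 fold change -5.44 ± 0.41, edgeR adjusted p = 6.11e-06). Spi1 and Spic are on the macrophage list and Erg on the endothelial list, whose summed levels are given above, and their part in these values was not tested. Klf2, a flow-induced factor of endothelium, and Maf were abundant factors on no other-cell list, at 102 against 597 CPM (log2 fold change -2.55 ± 0.22) and 47.7 against 375 CPM (-2.98 ± 0.16). Klf2 is also on the dissociation list, where it was 1 of the 4 lower members. Both genes are known in sinusoidal endothelium too, and the 2 sources cannot be told apart here.

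**Figure D3:**
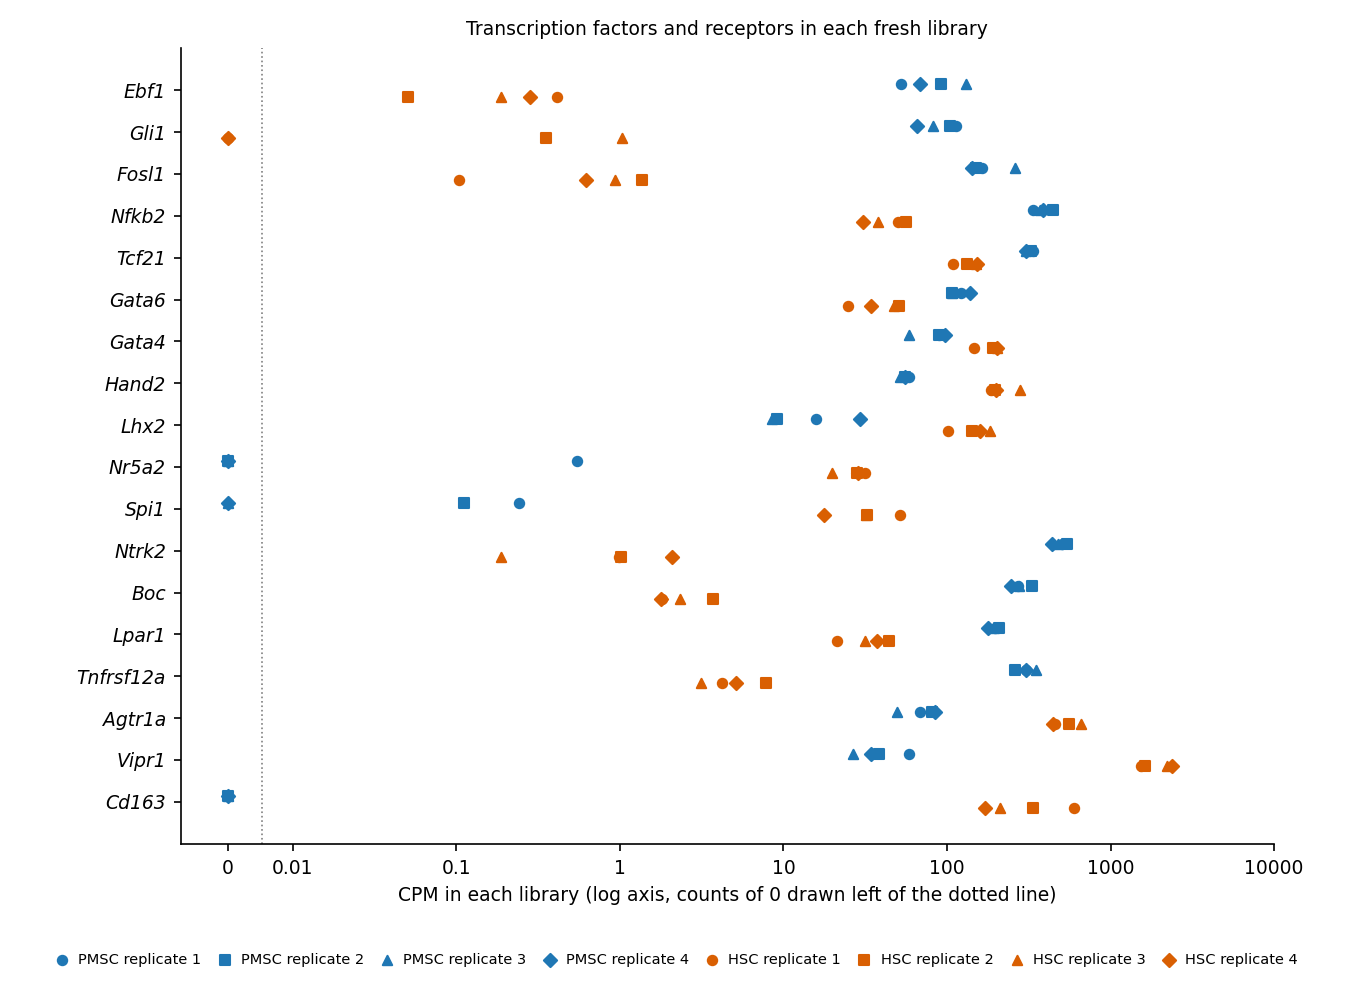
CPM (log axis) of 11 transcription factors and 7 receptors in each PMSC (blue) and HSC (orange) library, with 1 point per library, shapes for replicates and counts of 0 left of the dotted line. All 18 genes are drawn without overlap between the groups, with Ebf1, Gli1, Fosl1 and Ntrk2 far higher in PMSC, Tcf21, Gata6 and Gata4 close together, and Nr5a2, Spi1, Vipr1 and Cd163 far higher in HSC.

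Receptors for neurotrophins, secreted factors that keep neurons alive, differed in both directions. The receptor tyrosine kinases Ntrk2 and Ntrk3 were higher in PMSC. Ntrk2 lay at 503, 543, 480.3 and 438 CPM in PMSC and 0.981, 1.01, 0.187 and 2.08 CPM in HSC (log2 fold change 8.87 ± 0.52, edgeR adjusted p = 1.49e-06). Ntrk3 stood at 76.3 against 0.142 CPM (9.01 ± 0.23). Per transcript length Ntrk2 stood above Ntrk3 in PMSC, at 129.7 against 39.4 TPM (a level that corrects for transcript length). The low-affinity neurotrophin receptor Ngfr, a stellate gene, was lower in PMSC at 256, 354, 359 and 251 CPM in HSC and 59.3, 41.9, 37.5 and 53.8 CPM in PMSC (log2 fold change -2.66 ± 0.19, edgeR adjusted p = 1.26e-06). The neurotrophin Bdnf was higher in PMSC at 16.9 against 0.107 CPM (log2 fold change 7.27 ± 0.52).

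Hedgehog and Wnt receptors also leaned to PMSC. Boc, a hedgehog co-receptor, stood at 272, 333, 275 and 247 CPM in PMSC and 1.81, 3.69, 2.34 and 1.79 CPM in HSC (log2 fold change 6.86 ± 0.26, edgeR adjusted p = 2.26e-08). Its partners Cdon and Gas1 lay at 256 against 15.4 CPM and 237 against 25.3 CPM (log2 fold changes 4.06 ± 0.18 and 3.23 ± 0.21), and the signal transducer Smo at 121 against 26.9 CPM (2.17 ± 0.21). Hhip, which sequesters hedgehog ligand, went the other way at 28.8 against 389.7 CPM (-3.75 ± 0.33). Of 19 frizzled and Wnt co-receptor genes 12 were higher and 1 lower in PMSC. Ror2, a Wnt5a receptor, stood at 55, 51.6, 41.5 and 52 CPM in PMSC and 0, 0, 0.14 and 0 CPM in HSC (log2 fold change 10.11 ± 0.44, edgeR adjusted p = 5.43e-08). Without HSC replicate 3 Ror2 had no HSC count and was at least 949.5-fold higher in PMSC.

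Receptors for injury signals differed by ligand. Tnfrsf12a, the receptor of TWEAK, stood at 305, 259.7, 349 and 303 CPM in PMSC and 4.18, 7.84, 3.14 and 5.1 CPM in HSC (log2 fold change 5.91 ± 0.28, edgeR adjusted p = 1.29e-07). Lpar1, a lysophosphatidic acid receptor, lay at 197, 207, 192 and 178 CPM in PMSC and 21.4, 44.3, 31.6 and 37.2 CPM in HSC (log2 fold change 2.53 ± 0.20, edgeR adjusted p = 2.19e-06). Ackr3, a scavenger of Cxcl12, stood at 484 against 2.48 CPM (7.61 ± 0.36). Bdkrb1, the inducible kinin receptor, lay at 28.3 against 0 CPM, at least 740.0-fold higher in PMSC. Npy1r, a neuropeptide Y receptor, stood at 21.1 against 0 CPM and was at least 551-fold higher in PMSC. In the interleukin-6 family Il11ra1 (408 against 68.9 CPM, 2.57 ± 0.13), Osmr (520.4 against 111 CPM, 2.23 ± 0.23) and Cntfr (187 against 21.1 CPM, 3.15 ± 0.15) were higher in PMSC. The shared subunits Lifr (125 against 627 CPM, -2.32 ± 0.16) and Il6st (652 against 1833 CPM, -1.49 ± 0.14) were lower. Collagen-binding Itga11 lay at 132 against 1.06 CPM (6.94 ± 0.34). Fibronectin-binding Itga5 lay at 478 against 55.2 CPM (3.11 ± 0.17), with Itga1 lower at 76.5 against 461 CPM (-2.59 ± 0.26). Egfr, the epidermal growth factor receptor, lay at 344, 498, 409.7 and 408 CPM in PMSC and 80.5, 163, 50.5 and 41.3 CPM in HSC (log2 fold change 2.31 ± 0.42, edgeR adjusted p = 0.00141). It is also a hepatocyte gene and was highest in the 2 HSC libraries with the highest hepatocyte list sums. With HSC replicates 3 and 4 only its log2 fold change was 3.17. Ghr, the growth hormone receptor and likewise a hepatocyte gene, stood at 143 against 81.3 CPM (log2 fold change 0.81 ± 0.15, edgeR adjusted p = 0.000654). For this gene limma on log2(TPM + 1) gave 0.26 (adjusted p = 0.167).

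Vasoactive peptide receptors split, with 11 of 26 tested (42.3%) higher and 12 (46.2%) lower in PMSC, where all tested genes gave 32.7% and 34%. Vipr1, a receptor of vasoactive intestinal peptide, stood at 1542, 1631, 2203 and 2388 CPM in HSC and 58.3, 38.5, 26.7 and 34.5 CPM in PMSC (log2 fold change -5.62 ± 0.29, edgeR adjusted p = 1.44e-07). Agtr1a, the angiotensin II receptor, lay at 457, 560.0, 661 and 442 CPM in HSC and 68.6, 80.7, 49.7 and 84.4 CPM in PMSC (log2 fold change -2.90 ± 0.20, edgeR adjusted p = 9.92e-07). Pth1r, the parathyroid hormone receptor, stood at 27.6 against 446 CPM (-4.01 ± 0.22). The endothelin receptors Ednra and Ednrb lay at 29.3 against 299.7 CPM (-3.35 ± 0.21) and 122 against 723 CPM (-2.57 ± 0.28). Adra2b, an adrenergic receptor, stood at 8.16 against 156 CPM (-4.25 ± 0.19). PMSC expressed other members of the class, with Vipr2 at 15 against 0.0491 CPM (8.02 ± 0.57, or 9.23 without HSC replicate 3) and Adra1a at 15.2 against 0.244 CPM (5.93 ± 0.81, or 7.12 without HSC replicate 1). The 6 HSC-high receptors Vipr1, Agtr1a, Pth1r, Ednra, Ednrb and Adra2b varied 1.55, 1.49, 1.66, 1.56, 1.31 and 1.72 times over the HSC libraries. Members of both the stellate and the endothelial list show spreads in this range, but Vipr1, Pth1r and Ednrb are stellate list members themselves.

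Plxnc1, a semaphorin receptor, lay at 31.1 against 669 CPM (-4.42 ± 0.24) and Tnfrsf21 (death receptor 6) at 14.4 against 368 CPM (-4.68 ± 0.19). Kit, the stem cell factor receptor known from haematopoietic cells and sinusoidal endothelium, stood at 137, 143, 117 and 149 CPM in HSC and 3.32, 3.02, 0.587 and 5.09 CPM in PMSC (log2 fold change -5.44 ± 0.44, edgeR adjusted p = 1.11e-05) and is on no list used here. Fgfr2 stood at 152 against 792 CPM (-2.38 ± 0.24) while Fgfr1 was higher in PMSC at 345 against 33.5 CPM (3.37 ± 0.19).

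Most tested Toll-like receptors and C-type lectins were lower in PMSC. Of 13 tested Toll-like receptors and partners 0 were higher and 11 lower, and of 24 C-type lectins 4 were higher and 18 lower. Cd163, the haemoglobin scavenger receptor of Kupffer cells, lay at 601, 334, 211 and 171 CPM in HSC and 0 CPM in all 4 libraries of PMSC, at least 6993-fold lower in PMSC. Marco, another scavenger receptor, lay at 0 against 183 CPM, at least 3876-fold lower in PMSC. Clec12a, Adgre4, Gpr65 and Clec4a3 are on no other-cell list and resembled Clec4f in being highest in HSC replicate 1. Clec12a, a myeloid inhibitory lectin, stood at 68.9, 35.8, 33.6 and 20.7 CPM in HSC and 0, 0.056, 0 and 0 CPM in PMSC, a ratio of 2547 (95% counting interval 457 to 100619) towards HSC. Adgre4, an adhesion receptor of macrophages, stood at 198, 93, 91.2 and 56.3 CPM in HSC and 0.301, 0, 0 and 0 CPM in PMSC (log2 fold change -10.32 ± 0.79, edgeR adjusted p = 9.79e-06, -13.94 without PMSC replicate 1). Gpr65, a proton-sensing receptor, and Clec4a3 each held 1 count in the PMSC libraries together, with ratios of 1718 (95% counting interval 308 to 67904) and 1327 (95% counting interval 238 to 52446). The rule for lectins also took Clec3b (tetranectin), a secreted protein, at 825, 999, 1151 and 618 CPM in PMSC and 0.207, 0.0506, 0.562 and 0.505 CPM in HSC (log2 fold change 11.37 ± 0.48, edgeR adjusted p = 1.12e-07), a direction opposite to Clec4f. The macrophage list summed to between 8481 and 23180 CPM in HSC and its part in these receptors was not tested. Lectins of the Clec4a group have near-identical copies between which the estimated counts may be split.

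Among secreted Wnt antagonists, Sfrp1, Wif1 and Dkk2 were higher in PMSC. Sfrp1, a soluble frizzled decoy, lay at 1821, 1986, 1229 and 1034 CPM in PMSC and 0.362, 0.0506, 1.03 and 0.953 CPM in HSC (log2 fold change 11.29 ± 0.64, edgeR adjusted p = 1.28e-06). Wif1, which binds Wnt directly, stood at 69.3, 16.5, 45.5 and 6.35 CPM in PMSC and 0 CPM in all 4 libraries of HSC, at least 898-fold higher in PMSC, with PMSC replicate 1 highest and replicate 4 lowest. Without PMSC replicate 1 the bound was 594.2-fold. Dkk2, a blocker of the Wnt co-receptor, stood at 11.1 against 0 CPM, at least 289-fold higher. Of 19 Wnts, R-spondins and Wnt antagonists 13 were higher and 4 lower in PMSC, with Rspo1 higher at 27.4 against 0.142 CPM (log2 fold change 7.54 ± 0.79, or 11.91 without HSC replicate 1). Among the 4 lower members Rspo3 (15.2 against 302 CPM, -4.32 ± 0.18) and Wnt2 (4.01 against 51.5 CPM, -3.75 ± 0.53, or -4.43 without PMSC replicate 3), are on the endothelial list. Of 21 BMP and TGF-beta antagonists and binders 17 were higher and 2 lower, the higher ones including the latent TGF-beta binder Ltbp2 at 872 against 1.09 CPM (9.64 ± 0.75).

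Growth factors and neuropeptides of PMSC included several with no count in HSC. Adamts8, a secreted metalloproteinase, lay at 73, 72, 62.5 and 54.5 CPM in PMSC and 0 CPM in all 4 libraries of HSC, at least 1709-fold higher. Wisp2, a matricellular protein of fibroblasts, and Angpt4, an angiopoietin, had no count in HSC and lay at 59.8 against 0 CPM (at least 1561-fold higher) and 58.8 against 0 CPM (at least 1536-fold higher). Penk, the enkephalin precursor, stood at 211, 336, 294 and 100.2 CPM in PMSC and 0, 0, 0 and 0.112 CPM in HSC, with 2 HSC counts and a ratio of 8865 (95% counting interval 2454 to 73210.4). Fgf10 and Gdnf, growth factors of epithelium and of nerve, had no count in HSC either and lay at 20.7 against 0 CPM (at least 541-fold higher) and 8.6 against 0 CPM (at least 225-fold higher). Gas6, the ligand of Axl, stood at 3311 against 120.2 CPM (4.78 ± 0.22), and Igfbp6 at 385 against 0.299 CPM (10.32 ± 0.36). Slit3, a relative of Slit2, lay at 479 against 0.564 CPM (9.69 ± 0.54).

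Complement divided by component. C3, the central component, stood at 12432, 14371, 10256 and 9340.1 CPM in PMSC and 819, 1669, 178 and 226 CPM in HSC (log2 fold change 4.00 ± 0.75, edgeR adjusted p = 0.00177, 4.82 without HSC replicate 2). In HSC it was highest in the 2 libraries with the highest hepatocyte list sums. C7, a pore component, stood at 3142, 5312, 2826 and 2460.3 CPM in PMSC and 11.5, 12.6, 8.52 and 8.36 CPM in HSC (log2 fold change 8.39 ± 0.34, edgeR adjusted p = 3.45e-08). Serping1, the C1 inhibitor, lay at 4299 against 907 CPM (2.24 ± 0.18). Components made by hepatocytes were lower in PMSC. C8a had a log2 fold change of -7.72 ± 1.16, or -9.61 without PMSC replicate 2 and -6.96 without HSC replicate 2. For C8b it was -5.32 ± 1.04, or -6.80 without PMSC replicate 2 and -4.46 without HSC replicate 2. For C9 it was -7.03 ± 1.08, or -6.35 without HSC replicate 2 and -7.62 without PMSC replicate 4. The C1q chains made by macrophages were lower as well, with log2 fold changes of -9.12 ± 0.64 for C1qb, -8.97 ± 0.72, or -9.63 without PMSC replicate 4 for C1qa and -9.90 ± 0.71, or -11.00 without PMSC replicate 1 for C1qc. All 6 are on the hepatocyte or macrophage list.

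Chemokines and cytokines differed in both directions. Of 29 tested chemokines 13 (44.8%) were higher and 8 (27.6%) lower in PMSC, and 5 of the lower ones are on the other-cell lists. Of 23 tested interleukins and related cytokines 12 (52.2%) were higher and 8 (34.8%) lower. All tested genes gave 32.7% higher and 34% lower. Cxcl1, a neutrophil attractant, lay at 2852, 3421, 4989 and 3274 CPM in PMSC and 143, 115, 74.6 and 72.2 CPM in HSC (log2 fold change 5.17 ± 0.30, edgeR adjusted p = 3.08e-07). Its relative Cxcl2 stood at 186, 226, 337 and 260.4 CPM in PMSC and 169, 66.3, 63.4 and 38.1 CPM in HSC (log2 fold change 1.58 ± 0.44, edgeR adjusted p = 0.0128), with HSC replicate 1 close to the lowest PMSC library. Il6 and Lif, cytokines of the interleukin-6 family, stood at 1426 against 12.8 CPM (6.80 ± 0.50) and 339.9 against 1.18 CPM (8.18 ± 0.56). The monocyte attractant Ccl2 lay at 956 against 129.9 CPM (2.88 ± 0.54). Cxcl1 and Il6 are also on the dissociation list, 25 of whose 35 genes were higher in PMSC, and its part in them was not tested.

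The promoters of Cxcl1, Cxcl2 and Nfkb2 are shown because these PMSC-high genes hold letters of the NF-kappaB motif (GGG, any 2 bases, then TTTCC, on either strand) in the 250 bases before a listed start. Sequences are from RefSeq on GRCm38.p6, and capitals mark matches. The windows are chr5:90890995-90891244, chr5:90903649-90903898 and chr19:46304487-46304736, all on the plus strand.
Cxcl1: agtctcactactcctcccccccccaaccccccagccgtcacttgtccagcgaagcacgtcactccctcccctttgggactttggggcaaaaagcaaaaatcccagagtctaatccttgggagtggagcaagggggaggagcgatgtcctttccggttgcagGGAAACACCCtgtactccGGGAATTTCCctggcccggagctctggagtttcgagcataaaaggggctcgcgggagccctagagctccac
Cxcl2: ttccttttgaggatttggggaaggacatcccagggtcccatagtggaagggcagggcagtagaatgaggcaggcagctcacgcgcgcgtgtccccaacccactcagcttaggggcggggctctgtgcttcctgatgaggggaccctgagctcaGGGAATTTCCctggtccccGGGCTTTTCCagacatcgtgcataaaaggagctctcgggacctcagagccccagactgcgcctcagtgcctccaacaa
Nfkb2: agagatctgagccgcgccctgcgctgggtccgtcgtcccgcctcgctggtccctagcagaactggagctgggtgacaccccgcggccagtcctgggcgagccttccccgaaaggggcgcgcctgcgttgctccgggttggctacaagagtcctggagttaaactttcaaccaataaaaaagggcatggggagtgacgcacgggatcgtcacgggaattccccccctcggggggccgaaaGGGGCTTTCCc
Cxcl1 has matches starting 89 and 71 bases before the start site, Cxcl2 97 and 78, and the first of 3 Nfkb2 windows 11. All 250 bases of this Nfkb2 window lie inside the gene as RefSeq lists it, since another start lies further upstream. Of all 32851 windows of this length 1.41% hold the motif. Among chemokines, 3 of 9 higher genes with a window (Cxcl1, Cxcl2 and Cxcl3) and 0 of 6 lower ones held it. These are counts of genes, while the 1.41% is a share of windows. Cxcl1 and Cxcl2 are relatives that lie close together on chr5, so their matches are not independent. The counts are too small to compare. A match is a stretch of letters and was not tested for binding.

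BMP ligands and soluble lectins were among the secreted factors that were lower in PMSC. Bmp10, a circulating ligand of the endothelial receptor ALK1, lay at 94.8, 92, 149.5 and 104 CPM in HSC and 0.181, 0, 0 and 0.21 CPM in PMSC (log2 fold change -9.89 ± 0.42, edgeR adjusted p = 9.39e-08, -10.52 without PMSC replicate 4). Gdf2 (BMP9), its close relative, stood at 1077, 1389.6, 1378 and 1123 CPM in HSC and 40.5, 15.6, 16.8 and 29.6 CPM in PMSC (log2 fold change -5.60 ± 0.35, edgeR adjusted p = 8.48e-07). Colec10 and Colec11, which form circulating collectins, stood at 13 against 3181 CPM (-7.93 ± 0.37) and 162 against 1533 CPM (-3.24 ± 0.23). Fcna, a ficolin, lay at 1501, 1503, 1829 and 1536 CPM in HSC and 1.93, 1.34, 0.587 and 0.0525 CPM in PMSC (log2 fold change -10.64 ± 0.68, edgeR adjusted p = 2.81e-06). Hgf, the hepatocyte mitogen, lay at 697, 938, 1163 and 791 CPM in HSC and 83, 99.5, 51.6 and 78.5 CPM in PMSC (log2 fold change -3.52 ± 0.24, edgeR adjusted p = 7.8e-07). Angptl6 lay at 18.2 against 590.4 CPM (-5.02 ± 0.46). Per length, Fcna at 3629 TPM, Colec10 at 1841 TPM and Colec11 at 3183 TPM all exceeded Hgf at 906 TPM in HSC. Over the HSC libraries Bmp10, Gdf2, Colec10, Fcna and Hgf varied 1.63, 1.29, 1.35, 1.22 and 1.67 times. Colec10, Colec11, Fcna, Hgf and Angptl6 are themselves on the stellate list.

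Not every lectin of the family was as even. Apcs (serum amyloid P), a pentraxin that hepatocytes make, stood at 16.1, 57.8, 3.23 and 3.48 CPM in HSC and 0, 0.224, 0 and 0 CPM in PMSC (log2 fold change -8.18 ± 1.58, edgeR adjusted p = 0.00222, -11.49 without PMSC replicate 2 and -6.79 without HSC replicate 2), highest in the 2 HSC libraries with the highest hepatocyte list sums. With HSC replicates 3 and 4 only its log2 fold change was -5.62. The mannose-binding lectins Mbl1 (-6.29 ± 1.08, or -10.67 without PMSC replicate 2 and -5.62 without HSC replicate 2) and Mbl2 (-5.78 ± 1.02, or -7.21 without PMSC replicate 2) varied 6.38 and 6.78 times over the HSC libraries. C-reactive protein (Crp, -4.83 ± 0.97, or -5.85 without PMSC replicate 2 and -4.24 without HSC replicate 2) varied 7.71 times.

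The promoters of Bmp10, Gdf2 and Colec11 are shown because these HSC-high genes hold the letters AGATAA (either strand), a GATA motif, within 250 bases before a listed start, and because Gata4 and Gata6 differed in direction. Capitals mark matches, and RefSeq on GRCm38.p6 places the windows at chr6:87428744-87428993 and chr14:33940789-33941038 on the plus strand and chr12:28623331-28623580 on the minus strand.
Bmp10: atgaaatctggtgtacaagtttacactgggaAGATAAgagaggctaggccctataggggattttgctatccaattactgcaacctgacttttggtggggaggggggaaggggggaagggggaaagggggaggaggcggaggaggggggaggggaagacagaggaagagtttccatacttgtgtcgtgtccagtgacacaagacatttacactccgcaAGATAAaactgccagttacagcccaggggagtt
Gdf2: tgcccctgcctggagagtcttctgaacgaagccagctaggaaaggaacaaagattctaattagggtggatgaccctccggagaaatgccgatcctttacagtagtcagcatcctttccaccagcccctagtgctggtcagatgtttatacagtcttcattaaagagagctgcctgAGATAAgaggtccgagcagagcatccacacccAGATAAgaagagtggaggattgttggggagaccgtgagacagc
Colec11: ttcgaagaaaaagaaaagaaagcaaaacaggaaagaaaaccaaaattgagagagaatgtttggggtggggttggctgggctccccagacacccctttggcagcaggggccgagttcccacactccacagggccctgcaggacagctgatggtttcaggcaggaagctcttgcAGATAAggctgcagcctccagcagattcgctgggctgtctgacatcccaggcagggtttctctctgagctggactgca
Bmp10 has matches starting 219 and 33 bases before the start, Gdf2 75 and 43, and Colec11 78. The Colec11 window precedes a start inside the listed gene, so that 128 of its 250 bases, the match among them, lie within the gene. The motif is common, in 9.99% of the 32851 windows. Among TGF-beta superfamily ligands 2 of 7 lower genes with a window (Bmp10 and Gdf2) and 0 of 5 higher ones held it, and among collectins, ficolins and pentraxins 2 of 7 lower genes with a window (Colec11 and Mbl2) and 0 of 1 higher. These are counts of genes, not windows, and are too small to compare. All 6 genes shown were picked after their values and motifs were seen.

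Amino acid transporters differed in both directions, with 25 of 43 tested (58.1%) higher and 14 (32.6%) lower in PMSC. All tested genes gave 32.7% higher and 34% lower, so the lower share was near that of all genes. The higher ones included the glutamine carriers Slc38a2 (1348 against 292 CPM, 2.21 ± 0.15) and Slc1a5 (377 against 13.5 CPM, 4.80 ± 0.19). Slc6a2, the noradrenaline transporter, stood at 20.7, 23, 24.4 and 25.7 CPM in PMSC and 0.0516, 0, 0 and 0 CPM in HSC, with 1 HSC count and a ratio of 1836 (95% counting interval 329 to 72575). Slc6a7, the brain proline transporter, lay at 31.3, 29.6, 47.4 and 77.1 CPM in PMSC and 0, 0.304, 0 and 0 CPM in HSC (log2 fold change 9.12 ± 0.76, edgeR adjusted p = 1.29e-05, 12.66 without HSC replicate 2). Abca8a, a lipid exporter, stood at 1602, 2118, 1297 and 1300.2 CPM in PMSC and 28.5, 39.2, 24.8 and 29 CPM in HSC (log2 fold change 5.70 ± 0.24, edgeR adjusted p = 4.5e-08).

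Of 17 tested fatty acid and lipid transporters 5 (29.4%) were higher and 8 (47.1%) lower in PMSC, where all tested genes gave 32.7% and 34%. Transporters of other families that were lower in PMSC are given with them here. Aqp1, a water channel counted with the transporters, lay at 2121, 1655, 2127 and 2286 CPM in HSC and 110.4, 39.6, 23.5 and 21.3 CPM in PMSC (log2 fold change -5.39 ± 0.61, edgeR adjusted p = 9.08e-05, -6.17 without PMSC replicate 1). Fabp7, a fatty acid binding protein, stood at 39.2, 24.1, 14.1 and 17.5 CPM in HSC and 0, 0.056, 0 and 0.367 CPM in PMSC (log2 fold change -7.51 ± 0.70, edgeR adjusted p = 1.56e-05, -9.64 without PMSC replicate 4). Cd36, a fatty acid transporter, lay at 401, 289, 344 and 353 CPM in HSC and 20.9, 7.5, 1.96 and 1.15 CPM in PMSC (log2 fold change -5.44 ± 0.88, edgeR adjusted p = 0.000854, -6.56 without PMSC replicate 1). Abcc3, an organic anion exporter, stood at 180.4, 105, 81.3 and 73.2 CPM in HSC and 1.51, 3.81, 3.42 and 0.0525 CPM in PMSC (log2 fold change -5.70 ± 0.76, edgeR adjusted p = 0.000316). Ucp2, a mitochondrial carrier, lay at 283, 159, 164 and 153 CPM in HSC and 17.5, 19, 14 and 17.6 CPM in PMSC (log2 fold change -3.47 ± 0.22, edgeR adjusted p = 6.21e-07). Aqp1 and Cd36 are also expressed by sinusoidal endothelium and were as even over HSC (1.38 and 1.39 times) as the endothelial and stellate lists. Fabp7, Abcc3 and Ucp2 were each highest in HSC replicate 1 and varied 2.77, 2.46 and 1.85 times. The macrophage list was also highest in that library, and its part in these genes was not tested. Abcb11, the hepatocyte bile salt pump, lay at 81.6, 115, 42.1 and 32.4 CPM in HSC and 0, 1.4, 0 and 0 CPM in PMSC (log2 fold change -7.43 ± 1.01, edgeR adjusted p = 0.000339, -13.23 without PMSC replicate 2). The macrophage genes Folr2 and Slc11a1 lay at 0.0525 against 107 CPM (-10.59 ± 0.86, or -13.87 without PMSC replicate 4) and 0.848 against 72.5 CPM (-6.51 ± 0.55).

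Most voltage-gated calcium and ligand-gated channels were higher in PMSC. Of 13 tested voltage-gated calcium channel genes 12 were higher and 0 lower in PMSC, and 8 were at least 4-fold higher. Cacna1g, a low-threshold (T-type) calcium channel, stood at 109, 131, 79.4 and 137 CPM in PMSC and 0 CPM in all 4 libraries of HSC, at least 2979-fold higher. Cacnb4, an accessory subunit, stood at 17 against 0 CPM, at least 444-fold higher, and Cacna1c, the L-type pore, at 49.1 against 3.51 CPM (3.80 ± 0.19). Of 21 ligand-gated channels 16 were higher and 3 lower, among them glutamate receptor subunits. Gria1 lay at 108, 138, 98.8 and 166 CPM in PMSC and 0.362, 0.506, 0.515 and 0.0561 CPM in HSC (log2 fold change 8.41 ± 0.37, edgeR adjusted p = 1.18e-07), and Gria3 at 31.1 against 0.236 CPM (6.97 ± 0.60, or 7.94 without HSC replicate 2). Gabra3, a GABA receptor subunit, lay at 351, 417, 280.0 and 459 CPM in PMSC and 73.2, 82.7, 84 and 90.4 CPM in HSC (log2 fold change 2.19 ± 0.16, edgeR adjusted p = 1.49e-06).

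Of 8 tested voltage-gated sodium channels 4 (50%) were higher and 1 (12.5%) lower in PMSC. Of 19 voltage-gated potassium channels 10 (52.6%) were higher and 6 (31.6%) lower. All tested genes gave 32.7% higher and 34% lower, so the lower share of potassium channels was near that of all genes. Nalcn, the sodium leak channel, stood at 42.9, 50.6, 31 and 31 CPM in PMSC and 0 CPM in all 4 libraries of HSC, at least 1015-fold higher. Scn7a, a salt-sensing sodium channel that is also a Schwann cell gene, stood at 434, 641, 431 and 459.6 CPM in PMSC and 0.31, 0.405, 0 and 0.841 CPM in HSC (log2 fold change 10.33 ± 0.57, edgeR adjusted p = 1.15e-06, 11.00 without HSC replicate 4). The Schwann list (10 genes) summed to between 443.8 and 651.7 CPM in PMSC and between 5.43 and 11.98 CPM in HSC, mostly Scn7a. Of its 5 tested members Scn7a and Mbp, a myelin protein gene that stood at 6.05 against 0.847 CPM (2.83 ± 0.39), were higher in PMSC, and Erbb3 was lower at 0.19 against 6.13 CPM (-4.89 ± 0.58). Sox10, a defining Schwann factor, held 3 counts in the 4 PMSC libraries and 0 in HSC. The part of Schwann cells in these values was not tested. Kcnn3, a calcium-activated potassium channel, lay at 98, 71.3, 55.6 and 50.7 CPM in PMSC and 0, 0, 0 and 0.0561 CPM in HSC, with 1 HSC count and a ratio of 5449.7 (95% counting interval 978 to 215299). Kcne4, a potassium channel modifier, stood at 473, 673, 491 and 264 CPM in PMSC and 23.5, 29.7, 34.1 and 31.4 CPM in HSC (log2 fold change 4.00 ± 0.28, edgeR adjusted p = 1.54e-06).

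Inward rectifier and two-pore potassium channels ran the other way, with 2 of 13 higher and 10 lower in PMSC. Kcnj8, the pore of the vascular ATP-sensitive potassium channel, stood at 169.7, 253, 289 and 214 CPM in HSC and 34.2, 37.5, 27.6 and 32.8 CPM in PMSC (log2 fold change -2.81 ± 0.18, edgeR adjusted p = 5.21e-07). Abcc9, the sulphonylurea receptor of the same channel, lay at 1819, 2853, 2887 and 2365 CPM in HSC and 1491, 1545, 973 and 1294 CPM in PMSC (log2 fold change -0.90 ± 0.20, edgeR adjusted p = 0.00225). Mechanosensitive channels split, with Piezo2 lower at 79.1, 88.1, 114 and 88.4 CPM in HSC and 1.93, 4.98, 5.97 and 5.77 CPM in PMSC (log2 fold change -4.32 ± 0.32, edgeR adjusted p = 3.15e-06). Piezo1 was higher at 201, 190.3, 173 and 189 CPM in PMSC and 94.9, 91.8, 109 and 99.4 CPM in HSC (log2 fold change 0.93 ± 0.10, edgeR adjusted p = 2.13e-05). The gap junction genes Gjb1 and Gjb2, both hepatocyte connexins on no list here, stood at 0.345 against 27.4 CPM (-6.19 ± 0.82, or -7.89 without PMSC replicate 2) and 0.702 against 25.3 CPM (-5.13 ± 1.15, or -6.52 without PMSC replicate 2 and -4.21 without HSC replicate 2) and varied 4.56 and 13.5 times over the HSC libraries. With HSC replicates 3 and 4 only the log2 fold changes were -5.34 and -3.17. Clca3a1 stood at 18.4 against 429.9 CPM (-4.54 ± 0.43) and Ttyh1 at 1.15 against 24.5 CPM (-4.44 ± 0.35), with HSC spreads of 1.52 and 1.66 times. Trpm2, a channel of the macrophage list, held 2 counts in PMSC and lay at a ratio of 1494 (95% counting interval 413 to 12343) towards HSC.

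**Figure D4:**
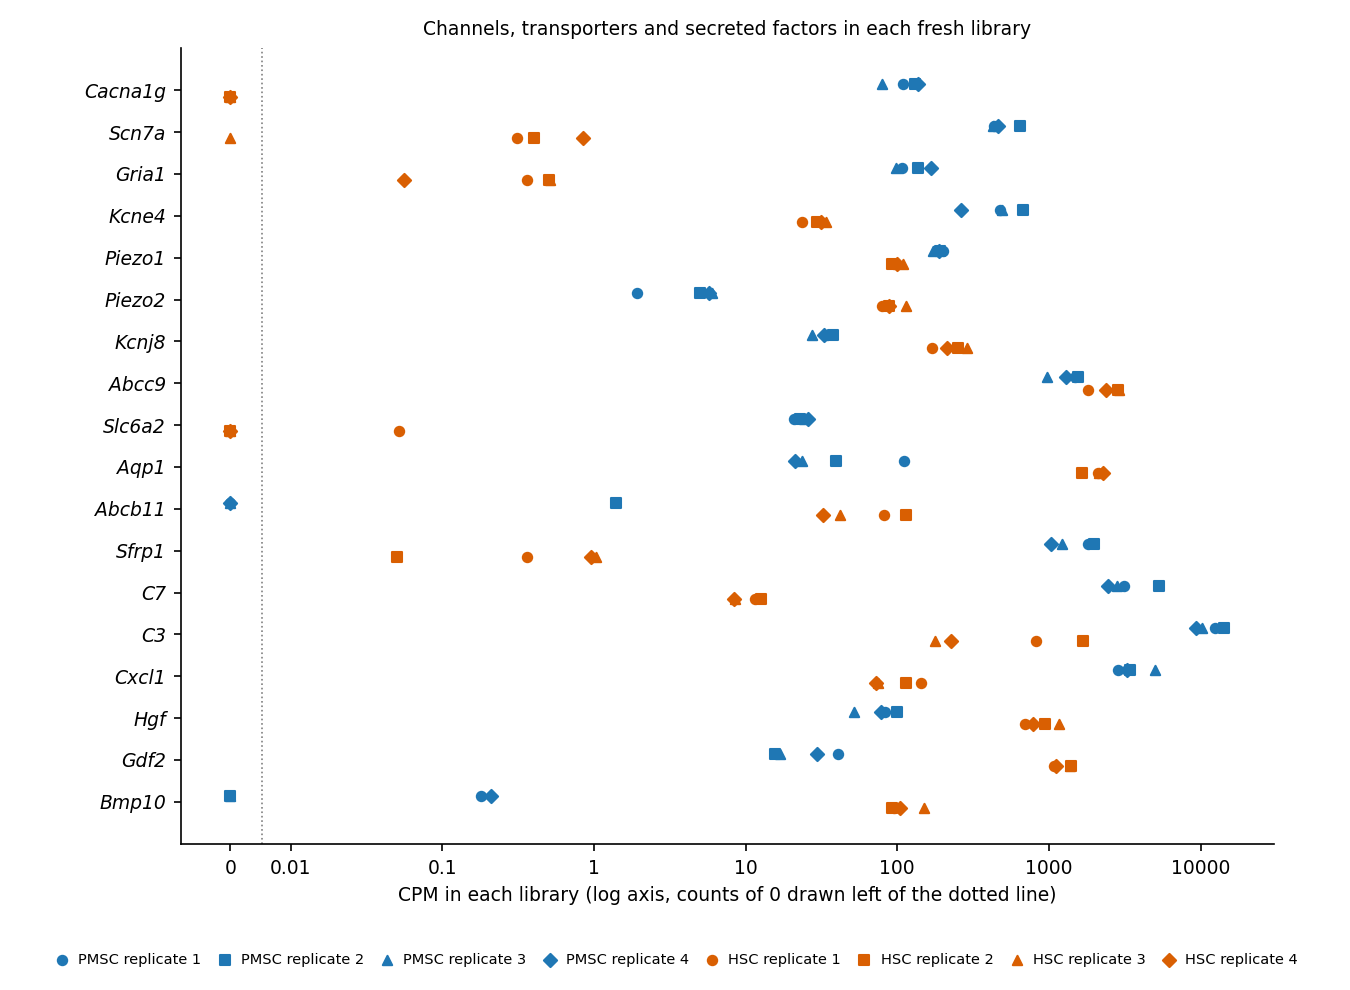
CPM (log axis) of 18 channels, transporters and secreted factors in each PMSC (blue) and HSC (orange) library, with 1 point per library, shapes for replicates and counts of 0 left of the dotted line. Cacna1g, Gria1, Sfrp1 and C7 lie far higher in PMSC, Kcnj8, Aqp1, Gdf2 and Bmp10 in HSC, and C3 and Abcb11 show the unequal HSC replicates.

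How evenly a gene sat over the 4 HSC libraries was used to describe which lower genes moved with the markers of other cells. For each gene at least 4-fold lower in PMSC the highest HSC value was divided by the lowest. Among the 20 such members of the stellate list this ratio ran from 1.11 to 1.89 (median 1.61) and 0 reached 2. Of 108 hepatocyte list members 107 reached 2 (median 5.14), with the peak in HSC replicate 2 for 88 and in replicate 1 for 19. Of 86 macrophage list members 78 reached 2 (median 3.47), and 84 peaked in HSC replicate 1, as did all 10 antigen-presenting members. Of 52 endothelial list members 1 reached 2 (median 1.37). By this ratio most hepatocyte and macrophage list genes lay above all stellate list genes, and endothelial list genes did not.

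Many genes on no other-cell list also varied over the HSC libraries. Of 1554 genes at least 4-fold lower in PMSC 272 (17.5%) are on an other-cell list. Of the remaining 1282 genes 684 (53.4%) reached a ratio of 2, of which 353 peaked in HSC replicate 1, 240 in replicate 2 and 91 in replicates 3 or 4. The ratio also rises with counting noise at low levels. At an HSC mean of at least 10 CPM, 317 of 751 such genes (42.2%, median 1.72) and 145 of 2831 uncalled genes (5.12%, median 1.29) reached 2. The threshold of 2 was chosen after the values were seen, and a peak in a given replicate does not name the cell that made the RNA.

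**Figure D5:**
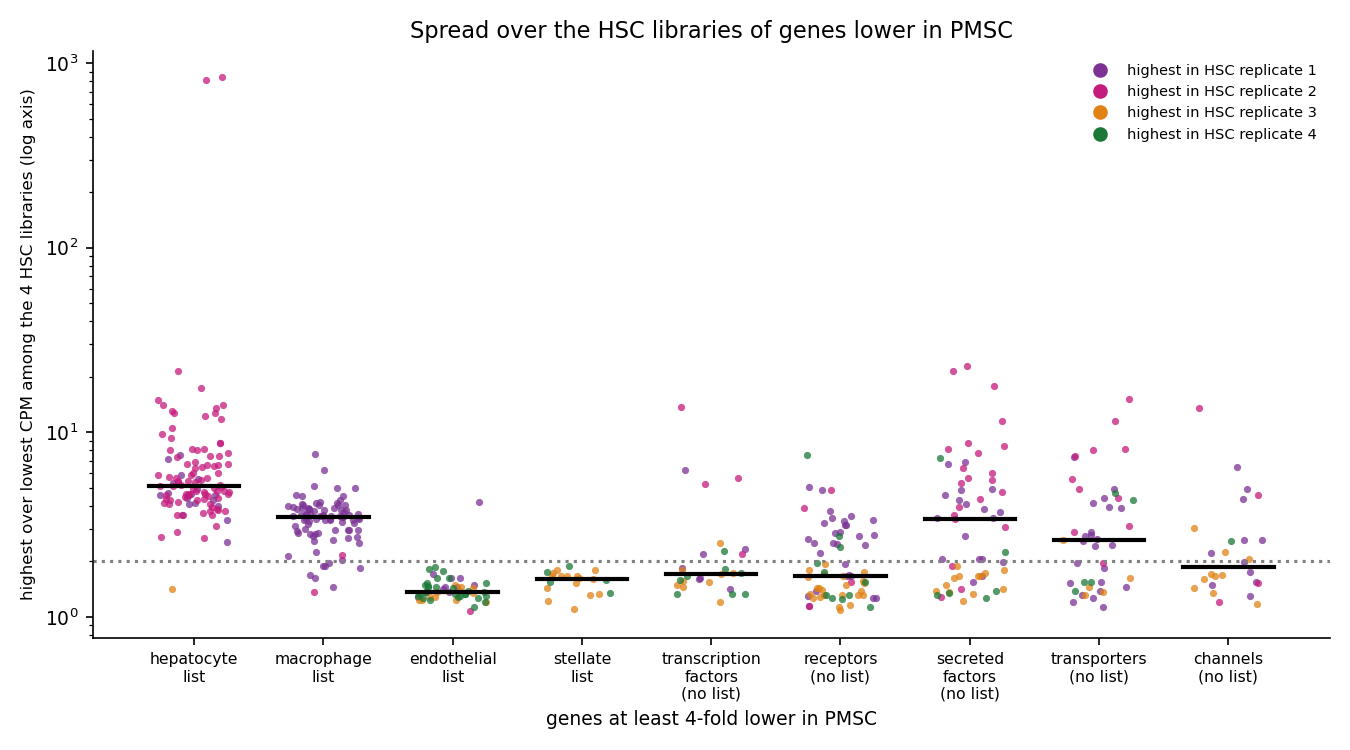
Highest over lowest CPM among the 4 HSC libraries (log axis) for genes at least 4-fold lower in PMSC, with 1 point per gene coloured by the HSC replicate that was highest, bars at the median and the dotted line at 2. Hepatocyte list genes peak in replicates 2 and 1 (median 5.14) and macrophage list genes in replicate 1 (median 3.47), while endothelial (1.37) and stellate (1.61) genes stay below the line with 1 exception.

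The same counts were made by class. Of receptors at least 4-fold lower 45 of 112 (40.2%) are on an other-cell list, and of the 67 others 25 reached a ratio of 2, 20 of them with the peak in HSC replicate 1. Secreted factors had 42 of 101 (41.6%) on a list, and of the 59 others 36 reached 2, with 19 peaking in replicate 2 and 15 in replicate 1. Transporters had 20 of 64 (31.2%) on a list and 26 of the 44 others at 2 or more. Transcription factors had 11 of 39 (28.2%) on a list and 9 of 28 others at 2 or more. Channels had 1 of 27 (3.7%) on a list and 12 of 26 others at 2 or more.

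In a fit without HSC replicates 1 and 2, which had the highest hepatocyte list sums, most of these genes passed the same rule. Of the 108 hepatocyte members 91 stayed at least 4-fold lower and their median log2 fold change went from -5.81 to -4.58. Of the 86 macrophage members 83 stayed (median -8.14 to -7.64), and all 52 endothelial and all 20 stellate members stayed (medians -5.35 and -3.78). Of the 1282 genes on no list 1116 (87.1%) stayed. Transferrin (Trf), an abundant hepatocyte product that PMSC also held, lost its call: it stood at 2138, 2932, 705 and 889.5 CPM in HSC and 665, 939, 544 and 750.5 CPM in PMSC (log2 fold change -1.20 ± 0.45, edgeR adjusted p = 0.042). With HSC replicates 3 and 4 only its log2 fold change was -0.15 (edgeR adjusted p = 0.598). Leaving out any PMSC library, HSC replicate 1 or HSC replicate 2 ended the call as well (edgeR adjusted p from 0.0511 to 0.108). The hepatocyte list still summed to 7066 and 10370 CPM in HSC replicates 3 and 4, above the 1925 to 3086 CPM of PMSC. The part of other cells in any single gene was not tested.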

How the data were processed

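RNA of 4 uncultured PMSC and 4 uncultured HSC libraries was measured by bulk RNA sequencing of total RNA with a stranded poly-A kit, per the labels' protocols. The authors deposited RSEM gene tables with an expected count, a TPM and an FPKM value per gene and library, per the file headers, and FPKM was not used. STAR 2.5.3a, RSEM 1.2.28, Trimmomatic and FastQC are named with mm10, per the submitters' processing notes, and their settings and the strand setting of the counting are not given in the sources used here. Reads of near-identical copies may be split by the estimation, and antisense pairs are uncertain.

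Expected counts of the 8 libraries, from 11810532 to 21438753 in total, were rounded to whole numbers, filtered with filterByExpr, scaled with TMM and tested with edgeR 4.0.16 (R 4.3.3) by the robust quasi-likelihood test, with Benjamini-Hochberg adjustment over 13725 genes. The TPM values, as deposited, served for levels between genes and for limma 3.58.1 on log2(TPM + 1) and log2(TPM + 0.1) of genes with a mean above 0.5 TPM. Other alternatives were DESeq2 1.42.0, other scalings, no low-count filter, all 20 libraries, a replicate block and leaving out each library. The script was tested on simulated data. Counting intervals are exact at 95% and cover counting error only, as do bounds from a floor of 3 counts.

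The members, gene families and marker lists were chosen with earlier results of these data known. For each class and direction the text names the 4 genes with the largest fold among called genes without overlap, with at least 20 CPM and on no other-cell list, up to 3 genes on such a list, and the 2 with the highest TPM. Other genes were chosen after their values were seen, to show families, and some genes are not reported here. Promoter sequences came from RefSeq on GRCm38.p6.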

Additional observations from a re-analysis of the deposited data

Results flagged for a closer look

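In 12 groups of 4 libraries 1 library stood apart from the other 3 by a gap above Dixon's critical value. The 111 genes gave 222 groups (2 each), but groups whose highest library was below 1 CPM were not checked. The share flagged is therefore not given, and chance gives about 1 in 20 of the groups checked. PMSC replicate 2 was high for Maf at 59.4 CPM, for Scn7a at 641 CPM and for the hepatocyte genes Abcb11 at 1.4 CPM and Gjb1 at 1.06 CPM. PMSC replicate 1 was high for the antigen presentation genes Cd74 at 45.3 CPM, against 7.63 to 12.7 CPM in the others, and H2-Ab1 at 13.1 CPM, and low for Sox9 at 58.2 CPM. PMSC replicate 3 was low for Itga2b at 4.6 CPM. HSC replicate 1 was high for Gpr65 at 50.7 CPM, against 16 to 21.8 CPM in the others, and for Ucp2 at 283 CPM. HSC replicate 3 was high for Fcna at 1829 CPM and low for the platelet gene Pf4 at 4.54 CPM.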

How the results depend on the processing

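The 4 counts of called genes kept within 1.5 times under the alternatives run, with 3 exceptions. With limma on log2(TPM + 1) 7208 genes were lower in PMSC and 892 were at least 4-fold higher, and with limma on log2(TPM + 0.1) 7192 genes were lower, and the cause was not tested. Leaving out 1 library gave 4316 to 4487 genes higher, 4414 to 4633 lower, 1686 to 1896 at least 4-fold higher and 1531 to 1666 at least 4-fold lower. With library totals alone 3148 genes were higher and 6816 lower (31.6% of calls higher, 49% with TMM). DESeq2 called 9083 of the 9159 genes (99.2%) in the same direction, library totals 7821 (85.4%), and HSC replicates 3 and 4 only, chosen after seeing the data, 7789 (85%). Of the named genes 0 reversed under any alternative, where a reversal needed a call in at least 1 of the fits compared. Of 3742 refits of single genes 24 lost a call, over 5 genes, and 8 gained one. Uncalled genes could change sign, as Epcam did, from -1.01 to 0.09 without HSC replicate 4. Same-numbered libraries deviated with correlations of -0.01 to 0.19, and only PMSC replicate 2 correlated best with its own number. The best correlations were weak too, at 0.0166 to 0.189, so whether the numbers pair the samples is not known. The fit with a replicate block gave 4233 genes higher, 4406 lower, 1708 at least 4-fold higher and 1567 at least 4-fold lower. Genes near the floor of 3 counts have bounds or wide intervals only.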

Other observations

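The lists of 3 cell types that could accompany PMSC differed in level. The mesothelial list (10 genes) summed to between 114 and 156.4 CPM in PMSC and between 1.69 and 9.97 CPM in HSC, made up of Wt1 (5140 counts over the 4 PMSC libraries), Rspo1 (1792) and Nkain4 (1640), while Msln held 4 counts and Upk3b 3. The cholangiocyte list (22 genes) summed to between 72.84 and 116.9 CPM in PMSC and between 77.93 and 290.8 CPM in HSC, and 2 of its 15 tested members were higher and 4 lower in PMSC. Smooth muscle genes (16 in the list) summed to between 1117 and 2017 CPM in PMSC and between 1050 and 1331 CPM in HSC. Of their 13 tested members 9 were higher and 2 lower in PMSC. Acta2, smooth muscle actin, averaged 172 CPM in PMSC and 7.21 CPM in HSC, and Myh11, smooth muscle myosin, 101 CPM and 64.1 CPM. The part of smooth muscle cells in PMSC values was not tested.

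Blood cell lists were low in both groups. The lymphocyte list (39 genes) summed to between 8.01 and 12.91 CPM in PMSC and between 30.4 and 73.08 CPM in HSC. Of its 11 tested members 1 was higher in PMSC, 5 were lower and 5 were not called. B cell genes differed in both directions. Bank1, a B cell adaptor, stood at 0.0656 CPM in PMSC and 20.3 CPM in HSC. Cd79a, a B cell receptor chain, held 172 counts in the PMSC libraries together and 3 in the HSC libraries. The neutrophil list (16 genes) summed to between 6.04 and 13.2 CPM in PMSC and between 32.64 and 57.07 CPM in HSC. The list of red cell and platelet genes (17 genes) summed to between 13.3 and 20.63 CPM in PMSC and between 79.14 and 113.9 CPM in HSC, most of it Itga2b, the platelet integrin subunit, at 8.68 CPM in PMSC and 75.4 CPM in HSC. The red cell gene Hbb-b1 stood at 0 CPM in PMSC and 2.57 CPM in HSC.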
